A study of Mus musculus with 6 samples.

Results

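The 8 genes described here, P2ry12, P2ry13, Gpr34, Tmem119, Siglech, Fcrls, Selplg and Olfml3, encode surface and secreted proteins of the homeostatic microglia signature. They were chosen by symbol, and all 8 were found once each among the 26789 genes of the deposited table. Microglia, the resident macrophages of the brain, were collected at P15 from the rostral nucleus of the solitary tract (NST), the first brainstem relay for taste, in control C57Bl/6 mice and in E3–E12 diet mice, whose dams ate a sodium-restricted diet from E3 to E12 of pregnancy. The comparison addressed whether this early maternal diet altered the microglia of the offspring at an age shortly ahead of the pruning of taste terminal fields. Each library held the pooled rostral NST of 6 littermates, so that 1 library stood for 1 litter, with 3 litters per group and both male and female mice in use. The study's protocol describes magnetic sorting on CD11b followed by RNA amplification, whereas the labels of the samples name laser microdissection with a different extraction and library kit, so the isolation step is uncertain. Pups of both groups were otherwise raised on standard chow and tap water.

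Homeostatic microglia survey the tissue with fine motile processes and carry a set of receptors that few other brain cells express. P2Y12 and P2Y13 sense ADP released by neurons and injured cells, and Siglec-H, a receptor of the Siglec family, signals through the adaptor DAP12. The signature is maintained by TGF-beta signaling together with the transcription factors PU.1 and Sall1, and its genes are known to be turned down when microglia become activated.

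P2ry12 (chr3:59216272-59262871) and P2ry13 (chr3:59207892-59210882) lay next to each other on the minus strand of GRCm38, both inside the transcribed span of Med12l, a Mediator kinase module gene on the opposite strand. Gpr34 (chrX:13632089-13640858, plus strand) lay inside Cask, a synaptic scaffold gene on the opposite strand. Tmem119 (chr5:113793729-113800516) and Selplg (chr5:113818536-113832644), both on the minus strand, were near neighbors on chromosome 5. Fcrls (chr3:87250758-87263738, minus strand), Olfml3 (chr3:103722222-103738001, minus strand) and Siglech (chr7:55768178-55778925, plus strand) overlapped no other annotated gene. The exons of P2ry12 shared 9 bp, or 0.353% of their length, with exons of Med12l, and those of P2ry13 and Gpr34 shared 0 bp with their host genes. Between 0.0% and 1.27% of the 50-base windows of a member's transcripts, the most in Selplg, also occurred in transcripts of another gene.

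RefSeq promoter sequence on GRCm38.p6 was found for 5 of the 8 genes, P2ry12, P2ry13, Siglech, Fcrls and Olfml3. The 250 bases upstream of the start site of P2ry12 (chr3:59262986-59263235, minus strand) and of P2ry13 (chr3:59210883-59211132, minus strand) are shown because these neighbors encode the paired ADP receptors. Capitals mark AGGAAG, a 6-base match to the core of the element bound by PU.1 and other ETS factors.

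P2ry12: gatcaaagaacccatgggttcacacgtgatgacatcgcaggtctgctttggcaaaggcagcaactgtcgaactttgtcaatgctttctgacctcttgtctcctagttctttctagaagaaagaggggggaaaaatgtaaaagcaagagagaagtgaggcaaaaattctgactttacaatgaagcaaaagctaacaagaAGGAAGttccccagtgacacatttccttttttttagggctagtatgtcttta
P2ry13: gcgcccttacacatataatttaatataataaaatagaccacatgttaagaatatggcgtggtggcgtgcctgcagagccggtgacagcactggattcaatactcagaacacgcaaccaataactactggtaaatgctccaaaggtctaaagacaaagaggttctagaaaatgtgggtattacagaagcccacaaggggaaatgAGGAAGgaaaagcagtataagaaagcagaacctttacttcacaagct

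The match began 52 bases before the start site in P2ry12 and 47 bases before it in P2ry13, on the strand of the gene in both. Part of the P2ry12 window overlapped an exon of Med12l. AGGAAG was present on either strand in 4 of the 5 promoters, with none in Siglech, and in 29.5% of all 32851 RefSeq promoter windows of this length. A second spelling of the core, GAGGAA, which can overlap the first in GAGGAAG, was present in 2 of the 5 promoters, those of P2ry13 and Fcrls, and in 23.3% of all windows. These matches describe letters in the sequence and are not measured binding sites.

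Values were the deposited normalized counts per gene, with library totals between 9407141 and 17204618, and 3459 to 10640 of the listed genes at 0. No gene among 20 housekeeping genes, looked up after the data were seen, was at 0 in any library. Markers of the labelled cell type differed widely in normalized counts, which were not divided by gene length here. Csf1r, the receptor for CSF-1 and IL-34 on which microglia depend, had a mean of 123077 normalized counts, and Cx3cr1, the fractalkine receptor, had a mean of 34107. Aif1, which encodes IBA1, had a mean of 522. Tyrobp, which encodes DAP12, had a mean of 289 and was at 0 in every E3–E12 diet library. The mean of each of the 8 homeostatic genes ranked between the percentile of 93.4 (Gpr34) and that of 99.6 (Tmem119) among the 18007 genes tested, those averaging 10 or more normalized counts. In bulk libraries such as these, fewer microglia and less RNA per microglial cell cannot be told apart.

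Control library 1 and E3–E12 diet library 1 stood apart from the other 4 libraries at every homeostatic gene. They were the 2 lowest libraries for 8 of the 8 genes, an arrangement seen in 11.6% of all genes tested. The summed level of the 8 genes was 21153, 113874 and 83206 normalized counts in controls 1, 2 and 3 and 22340.2, 55988 and 81377 in E3–E12 diet libraries 1, 2 and 3. As a percent of the library total the sums were 0.219, 0.662 and 0.699 in controls and 0.237, 0.50 and 0.555 in E3–E12 diet mice. Of 35 other microglia genes, 32 also had their 2 lowest values in these libraries, as did 6 of 10 border-associated macrophage genes and 10 of the 20 housekeeping genes. In the neuron, astrocyte, oligodendrocyte, endothelial, mural, choroid plexus, monocyte and neutrophil, and erythroid lists, 0 genes did so. Control 2 stood apart in other ways. It had the most genes at 0 (10640) and the lowest median log2 deviation for endothelial (-4.32), astrocyte (-3.49) and mural (-2.79) genes and the highest for monocyte and neutrophil genes (2.01), and it was the highest library for P2ry13, Tmem119, Siglech and Fcrls.

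**Figure D1:**
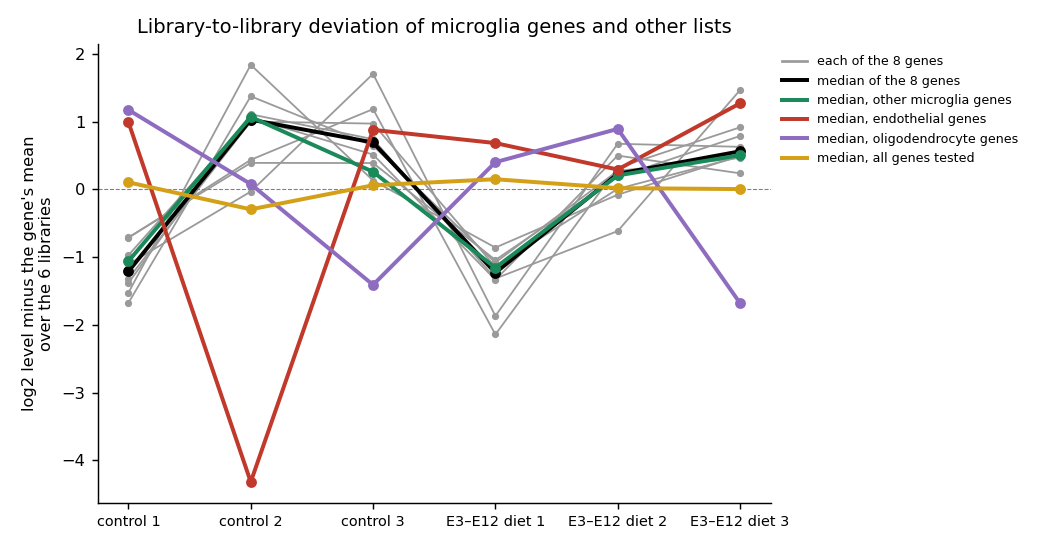
Log2 level minus the gene's own mean over the 6 libraries (y axis) in each library (x axis), with a gray line for each of the 8 genes and thick lines for the median of the 8, of other microglia genes, of endothelial and oligodendrocyte genes and of all genes tested. The median of the 8 genes was -1.21 in control 1 and -1.23 in E3–E12 diet 1, close to that of the other microglia genes (-1.06 and -1.16), whereas the endothelial median was above 0 in both (0.99 and 0.68).

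Of the ADP receptors, P2ry12, through which microglial processes are drawn toward ATP and ADP, had normalized counts of 2655, 14924 and 11569 in control libraries 1 to 3 and 2781, 4519 and 19102 in libraries 1 to 3 of the E3–E12 diet group. The groups overlapped fully, since E3–E12 diet mice supplied the highest value and a control library the lowest. The means were 9716 ± 6341 in controls and 8800.5 ± 8963 in E3–E12 diet mice (SD, n = 3), a log2 difference (E3–E12 diet minus control) of -0.31 with an SE of 1.02 and a 95% confidence interval of -2.76 to 2.13. P2ry13, whose product is an ADP receptor linked to the ramified shape of resting microglia, was at 2673, 13321 and 13050.1 in controls and 3013, 6693 and 9296 in E3–E12 diet mice. Both of the higher control values exceeded every E3–E12 diet value, but control 1 was the lowest of all 6 libraries. Its log2 difference was -0.44 with an SE of 0.87.

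The ratio of P2ry12 to P2ry13 counts was 0.993, 1.12 and 0.887 in controls and 0.923, 0.675 and 2.05 in E3–E12 diet mice. The ratio stayed near 1 in controls, and its lowest and highest values were both in E3–E12 diet libraries. Gpr34, which encodes the lysophosphatidylserine receptor, was at 901, 2002 and 3365 normalized counts in controls and 335, 1846 and 2792 in E3–E12 diet mice. The groups overlapped. Of the 8 genes it had the largest log2 difference in size, -0.60 with an SE of 0.99 and a 95% confidence interval of -2.96 to 1.76.

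**Figure D2:**
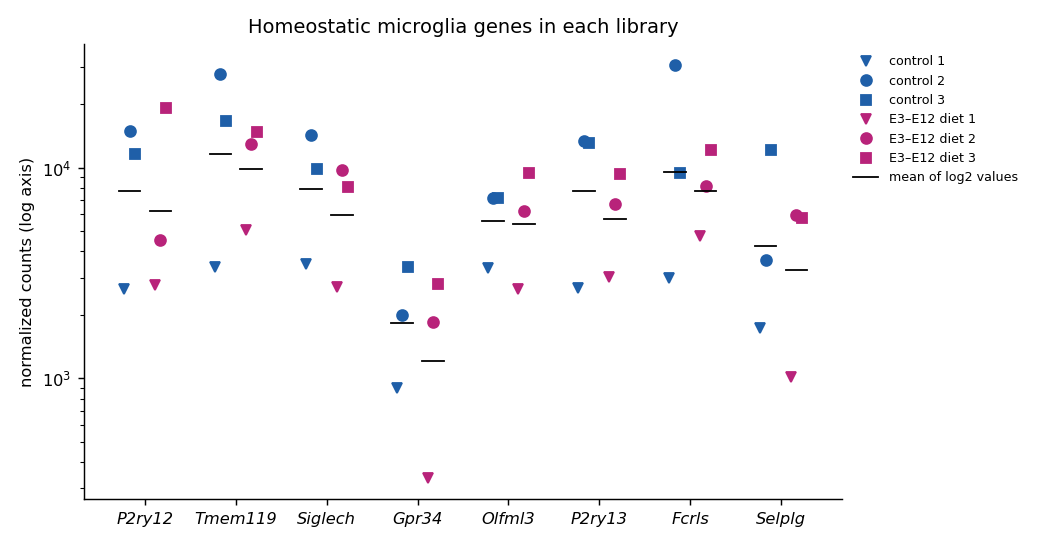
Normalized counts (y axis, log scale) of the 8 genes (x axis) in 3 control and 3 E3–E12 diet libraries, with 1 symbol per library and a black line at the mean of the log2 values of each group. The triangles of the libraries numbered 1 are the 2 lowest points for every gene, and the diet groups overlap for every gene.

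Among the other surface proteins, Tmem119, a transmembrane protein widely used to tell microglia from infiltrating macrophages, was at 3353, 27737 and 16713 normalized counts in controls and 5065, 12935 and 14767 in E3–E12 diet mice. The controls held both extremes, with an 8.27-fold range between libraries fed the same diet. The log2 difference was -0.23 with an SE of 0.96. Siglech, which encodes the Siglec family receptor Siglec-H, was at 3498, 14269 and 9793 in controls and 2719.8, 9689 and 8083 in E3–E12 diet mice. Each E3–E12 diet library lay below the control library that ranked like it, yet the 2 groups overlapped over most of their range. The log2 difference was -0.40 with an SE of 0.83 and a 95% confidence interval of -2.37 to 1.58.

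Fcrls, an Fc receptor-like gene of rodents that marks resident microglia, was at 2995, 30808 and 9435 normalized counts in controls and 4751, 8160.2 and 12144 in E3–E12 diet mice. Its control libraries differed 10.3-fold, and a single value, control 2, lay far above the rest. Selplg, which encodes the selectin ligand PSGL-1, was at 1727, 3633 and 12112 in controls and 1017, 5923 and 5742 in E3–E12 diet mice. It had the widest range of the 8 genes, 11.9-fold from E3–E12 diet library 1 to control 3. The log2 differences were -0.30 with an SE of 0.96 for Fcrls and -0.38 with an SE of 1.04 for Selplg.

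Olfml3, which encodes a secreted olfactomedin-like matrix protein, varied least of the 8, with a 3.55-fold range. Its normalized counts were 3351, 7180.4 and 7169 in controls and 2659, 6221 and 9452 in E3–E12 diet mice. Both the lowest and the highest value were from E3–E12 diet libraries. The means of 5899.9 ± 2208 in controls and 6111 ± 3398 in E3–E12 diet mice (SD, n = 3) had the opposite order to the log2 difference, -0.047 with an SE of 0.72, so Olfml3 had no direction that held on both scales.

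None of the 8 genes passed the test for a difference between diets (0 of 8, adjusted p = 0.999 for each, limma with Benjamini-Hochberg adjustment over 18007 genes), and over all genes tested 0.0% passed at the threshold of 0.1. The study's own comparison, made with DESeq2, listed genes past that threshold in both directions, with none of the 8 among them. At an unadjusted p under 0.05 the counts were 0 of 8 and 1.82% of all genes. In exact two-sided permutation tests of 3 against 3 libraries, where 0.1 is the smallest p possible, p was 0.5 for Siglech, 0.6 for P2ry13 and Gpr34, 0.7 for Selplg, 0.8 for Tmem119, 0.9 for Fcrls and 1 for P2ry12 and Olfml3. The diet groups were without overlap for 0 of 8 genes and for 5.9% of all genes. The mean log2 level was lower in E3–E12 diet mice for 8 of 8 genes, against 45.6% of all genes, but Olfml3 was higher with counts scaled to equal library totals or quantile normalized, and all 8 were higher when each library was centered on the 35 other microglia genes. The median log2 difference of the 8 was -0.34, and that of all genes tested was 0.087. After centering, the corresponding medians were 0.27 for the 8 genes and 0.70 for all genes. Tyrobp and Mef2c, at 0 in some libraries, entered that centering, and with the 33 other microglia genes above 0 in every library, a choice made after the data were seen, 7 of the 8 genes were lower, the median of the 8 was -0.14 and that of all genes 0.29.

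The direction also depended on single libraries. Without E3–E12 diet library 1, the log2 difference of 8 of 8 genes was above 0, from 0.026 (P2ry13) to 0.46 (Olfml3). Without control 2, the number of genes lower in E3–E12 diet mice was 3 and the median log2 difference was 0.083, and without control 3 it was 5. With both libraries numbered 1 left out, a comparison added after the data were seen, 7 genes were lower and Olfml3 was higher, and the median log2 difference was -0.46 with 0 genes past either threshold. The spread limited what could be seen in the comparison of all 6 libraries. There the 8 genes had a median SE of 0.96 against 0.85 for all genes tested. Every confidence interval extended at least to -1.77 on one side and to 1.58 on the other. With a term for the replicate number added, the median SEs were 0.61 for the 8 genes and 0.71 for all genes. With that term 0 of the 8 genes passed either threshold.

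**Figure D3:**
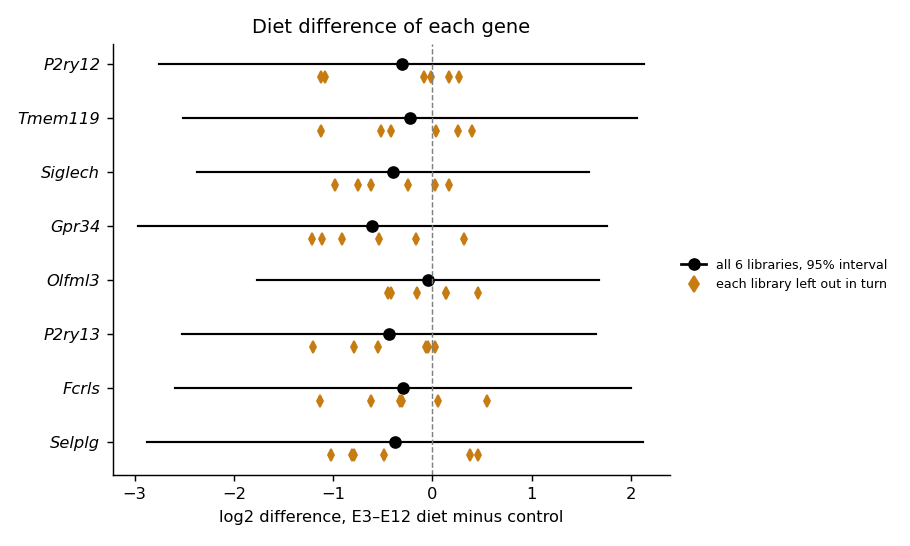
Log2 difference, E3–E12 diet minus control (x axis), of each of the 8 genes (y axis), with a black point and 95% confidence interval for all 6 libraries and a diamond for each fit with 1 library left out. All 8 intervals include 0 and every gene has diamonds on both sides of 0, and the black points, all below 0 here, lie above 0 for Olfml3 with counts scaled to equal library totals or quantile normalized and for all 8 genes after centering on the 35 other microglia genes, but only for Olfml3 after centering on the 33 above 0 in every library.

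Counts were divided by exon length to set the levels of the 8 genes beside each other. On the scale of log2 counts per kilobase, averaged over 6 libraries, the order was Tmem119 (12.18), Fcrls (11.85), P2ry12 (11.41), P2ry13 (11.36), Siglech (10.99), Olfml3 (9.80), Selplg (9.77) and Gpr34 (9.47). Tmem119 exceeded Gpr34 in every library, by 2.71 ± 0.83 on this scale (SD, n = 6), a description of the ends of the order with no test. Between neighbors in the order, the widest gap separated Siglech from Olfml3, at 1.19 ± 0.45 with Siglech higher in 6 of 6 libraries (exact paired permutation p = 0.03125, the smallest possible, adjusted p = 0.21875 over 7 neighboring pairs). Part of this gap came from the exon lengths, 3383 bp for Siglech and 6161 bp for Olfml3. Before division by length, Olfml3 was the higher in E3–E12 diet library 3 (9452 against 8083), and Siglech in the others. No neighboring pair passed the adjustment, and for P2ry12 against P2ry13 the mean difference was 0.046 ± 0.54. Tmem119 was first in 4 libraries, behind Fcrls in control 2 and behind P2ry12 in E3–E12 diet library 3. With the length of the longest transcript in place of all exons, Siglech moved from rank 5 to rank 3 and Selplg from 7 to 6. Of the 8 genes 3 kept their rank, with Tmem119 first, Fcrls next and Gpr34 last.

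**Figure D4:**
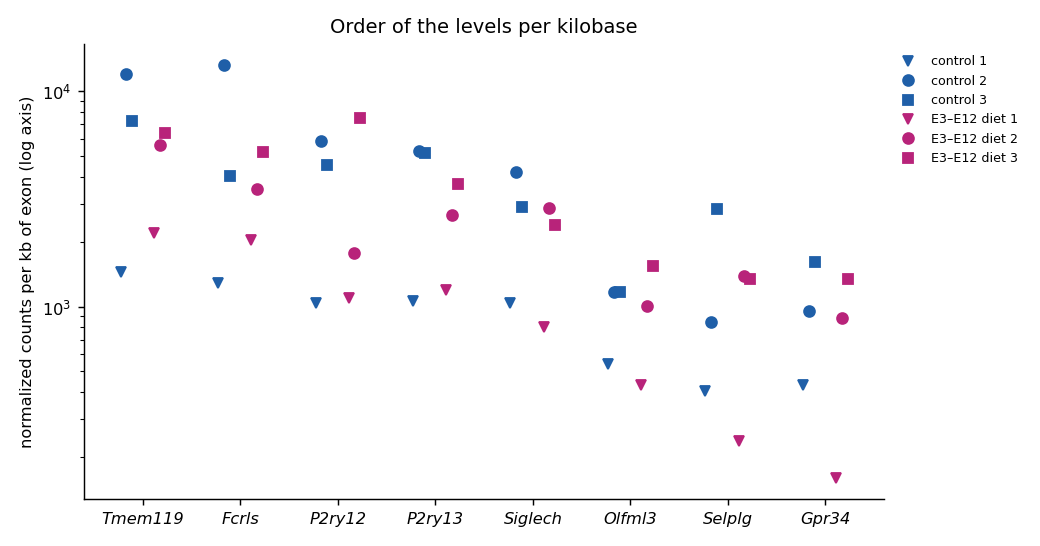
Normalized counts per kilobase of exon (y axis, log scale) of the 8 genes, ordered from the highest mean level to the lowest (x axis), with 1 symbol per library. The symbols of neighboring genes overlap, and Tmem119 lies above Gpr34 in each of the 6 libraries.

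The 8 genes varied less relative to the rest of the microglia list than in themselves. The 8 genes together amounted to 10.7%, 12.3% and 16.4% of the summed counts of the 35 other microglia genes in controls and to 11.3%, 12% and 12.3% in E3–E12 diet mice. This share varied 1.54-fold over the 6 libraries, whereas the sum of the 8 genes varied 5.38-fold. When the mean log2 level of the other microglia genes was subtracted from each gene, the SD over 6 libraries ran from 0.16 (Siglech) to 0.80 (Selplg), for each gene below the SD of its own log2 level, which ran from 0.71 (Olfml3) to 1.30 (Selplg).

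Relative to those 35 genes, Siglech was at 0.48, 0.51 and 0.48 log2 units in controls and 0.64, 0.91 and 0.58 in E3–E12 diet mice. The groups did not overlap (difference 0.22, exact two-sided permutation p = 0.1, the smallest possible), and they overlapped for the other 7 genes. Centered in the same way, 3.39% of all genes tested had groups without overlap, beside 1 of the 8. Tyrobp and Mef2c, a transcription factor of the microglial lineage, were listed at 0 in part of the libraries and weighed heavily in that mean. With the 33 other microglia genes above 0 in every library, a choice made after the data were seen, the Siglech difference was -0.20, the groups of all 8 genes overlapped (0 of 8, against 2.05% of all genes, exact permutation p = 0.4 for Siglech), and 7 of the 8 genes, all but Olfml3, had a negative difference. The relative level of Siglech therefore had no direction that held under both reference lists.

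Pairs of the 8 genes differed in how closely they kept to one another. Over all 28 pairs the SD of the log2 ratio across 6 libraries had a median of 0.64, from 0.30 for Tmem119 and P2ry13 to 1.24 for Fcrls and Selplg, and for 0 pairs did the diet groups separate. P2ry13 was nearest to the mean profile of the 8 genes, with a root mean square difference of 0.17 log2 units over the 6 libraries, and Selplg was farthest, at 0.61. Outside the set, the 5 genes of 10472 compared whose profiles were most like that mean profile were D1Ertd622e (0.15), Trem2 (0.15), Card6 (0.17), Camk1 (0.18) and Pik3r5 (0.19). The median over all genes compared was 1.07, and 26 of the 35 other microglia genes were among the closest 10%. Trem2, the lipid-sensing receptor that signals through DAP12, had normalized counts of 908, 5186 and 4133 in controls and 918, 2850.4 and 4467 in E3–E12 diet mice, with the same 2 libraries lowest.

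Of the 18 genes listed as signaling partners of the P2Y receptors, 11 had a higher and 7 a lower level under the E3–E12 diet, with a median log2 difference of 0.056 and 0 past either threshold. Entpd1, which encodes the ectonucleotidase CD39 that removes ATP and ADP from the cell surface, was at 3200.5, 6948 and 7762 normalized counts in controls and 8928, 8220.5 and 9159.6 in E3–E12 diet mice. Every E3–E12 diet value exceeded every control value, although the log2 difference of 0.65 with an SE of 0.60 did not pass the test (limma adjusted p = 0.999). It was the 1 gene of the 18 without overlap, a share near the 5.9% of all genes. E3–E12 diet library 1, which was low for all 8 homeostatic genes, was not low for Entpd1. Kcnk13, the potassium channel THIK-1 of microglia, was at 228, 15.9 and 245 in controls and 160, 205 and 224 in E3–E12 diet mice, with the groups overlapping.

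Of 11 ligand and adaptor genes for the other receptors, 6 were abundant enough to test. The mean log2 level was lower in E3–E12 diet mice for all 6, against 45.6% of all genes tested (median log2 difference -0.55). None of them passed the adjusted threshold. For Pla1a the mean counts had the opposite order, 16.0 in controls and 20.0 in E3–E12 diet mice. Tyrobp, which encodes the DAP12 adaptor of Siglec-H, was at 182, 59.5 and 1494 normalized counts in controls and was listed at 0 in each of the 3 E3–E12 diet libraries. Its unadjusted p was 0.000314 and its adjusted p was 0.999 by limma. Tyrobp was the 1 gene of the 6 with an unadjusted p under 0.05, beside 1.82% of all genes tested. It was also the 1 without overlap, beside 5.9% of all genes. Siglech itself was between 2719.8 and 9689 in these same 3 libraries.

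Around the genes on the chromosome, 9 of 12 listed neighbors were tested, with 5 higher and 4 lower and 0 past either threshold. Med12l, the host gene of P2ry12 and P2ry13, was at 1092, 1344 and 1439 normalized counts in controls and 1055, 952 and 566 in E3–E12 diet mice. All E3–E12 diet values were below all control values (log2 difference -0.63, SE 0.56, limma adjusted p = 0.999). Med12l was the 1 gene of the 9 without overlap, beside 5.9% of all genes tested. The order of the libraries was not that of P2ry12, which was highest where Med12l was lowest. Cask, the host of Gpr34, was at 1209, 8009 and 2469 in controls and 2081, 3301 and 1166 in E3–E12 diet mice, overlapping.

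None of the other microglia genes on the list passed the adjusted threshold (0 of 35). Of them 6 had a higher and 29 a lower level under the E3–E12 diet, with a median log2 difference of -0.25. The 2 of 35 with an unadjusted p under 0.05, beside 1.82% of all genes tested, were Tyrobp and Mef2c. The latter was noted after its values were seen. Mef2c was at 664, 7016 and 1446 normalized counts in controls and at 0, 1728 and 0.887 in E3–E12 diet mice. The log2 difference was -0.0053 for Cx3cr1, -0.28 for Csf1r, -0.14 for Itgam (CD11b, the antigen of the sort in the study's protocol), -0.0041 for Aif1 (IBA1) and -0.93 for Ptprc (CD45), with SEs from 0.70 to 0.94.

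Markers of other cells placed the libraries in other orders. The oligodendrocyte list, led by Mbp, summed to 46296, 18737 and 5931 normalized counts in controls and 20718, 27182 and 7384 in E3–E12 diet mice. The choroid plexus list, led by Ttr and Kl, ranged 383-fold, from 109 in E3–E12 diet library 2 to 41926 in E3–E12 diet library 1, with controls between 809 and 19857. The border-associated macrophage list, led by Stab1 and Mrc1, summed to 8703, 64800.2 and 10883 in controls and 11705, 19387 and 17674 in E3–E12 diet mice, highest in control 2 as were P2ry13, Tmem119, Siglech and Fcrls.

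Control 2 was the lowest library for the sums of endothelial, mural, astrocyte and erythroid genes. Endothelial markers, led by Flt1 and Pecam1, summed to 4808 to 15325 in controls and 10071 to 19949 in E3–E12 diet mice. The range was 2663 to 16379 against 6537 to 17934 for mural genes (Rgs5, Abcc9), 2269.9 to 9436 against 5021 to 10693 for astrocyte genes (Slc1a2, Slc1a3), and 1139.5 to 2286 against 999.9 to 2696 for neuron genes (Snap25, Gad1). Monocyte and neutrophil genes (S100a9, Ngp) summed to 582 to 3818 against 778 to 1067, and erythroid genes (Hba-a2, Alas2) to 12.7 to 220 against 22.0 to 95.5. Within these lists the diet groups separated for Pf4 and Esam, which were lower in E3–E12 diet mice, and Aldoc, which was higher, with 0 past the adjusted threshold. These 3 of 87 tested genes were a smaller share than the 5.9% of all genes without overlap. The part of these markers in the values of the 8 genes was not tested.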

How the data were processed

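Mouse microglia RNA-seq was available as 1 table of normalized counts for 26789 genes in 3 control and 3 E3–E12 diet libraries, grouped by the sample titles. Per the labels, paired-end reads of 75 bp were processed with FastQC, STAR, featureCounts and DESeq2 on GRCm38, with no versions given. The study's protocol gives a shorter read length. The values are a non-integer signal that the authors deposited after scaling by DESeq2. Median-of-ratios size factors recomputed from it were 1.01 in each library, and the deposited name mentions surrogate variables, which no source used here describes. Whole reads could not be recovered, since 50.1% to 68.3% of low values fell within 0.05 of a multiple of the smallest step. The study's protocol states a range of reads per sample but no value for each library. The reads behind each value are therefore unknown, and no counting interval is given.

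Ensembl identifiers were matched to symbols in GENCODE vM21 (26507 matched). Genes averaging 10 or more normalized counts were compared on log2(value + 1) with limma (version 3.58.1, R 4.3.3), two-sided, Benjamini-Hochberg adjusted, at the study's threshold of 0.1, after the code was tested on simulated data. Differences are on this log2(value + 1) scale. limma replaced a count model because raw counts were not used here. Single values were compared by exact two-sided permutation tests. Separate litters were the replicates. The 8 genes and all lists were chosen with earlier results of these data known. The genes named were the 8 in full, chosen microglia genes (Cx3cr1, Csf1r, Tyrobp, Aif1, Itgam and Ptprc), Med12l, Cask and Kcnk13, listed genes whose groups did not overlap, the 2 most abundant genes of each other cell type, and the 5 genes, of those averaging 100 or more normalized counts, most like the mean profile. Some genes that this rule selects are not reported here. Alternatives changed the pseudocount, filter, scaling, centering, variance model and weights, added a replicate block or a residual principal component, and left out each library.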

Additional observations from a re-analysis of the deposited data

How the results depend on the processing

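In all 19 alternatives, 0 of the 8 genes passed the adjusted threshold or had an unadjusted p under 0.05. Over all genes, array weights gave 5 past the adjusted threshold, none of them among the 8, where every other setting gave 0. Genes at an unadjusted p under 0.05 numbered 327 of the 18007 tested in the reported comparison. With a mean of at least 100 they numbered 156, of only 10480 genes tested. Out of 18007 they numbered 142 when centered on the other microglia genes and 115 on those above 0 in every library. The count was 1205 with array weights and 1423 with the residual principal component, again of 18007. Centering moved the median of all genes from 0.087 to 0.70 and 0.29. With single libraries left out the unadjusted count ranged from 276 to 551, the most without control 1. The cause of these differences was not tested.

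The number of the 8 genes lower in E3–E12 diet mice was 0 when centered on the other microglia genes, where the log2 differences were 0.31 for P2ry12, 0.39 for Tmem119, 0.22 for Siglech, 0.014 for Gpr34, 0.57 for Olfml3, 0.18 for P2ry13, 0.32 for Fcrls and 0.24 for Selplg. With single libraries left out the number ranged from 0 to 8. Olfml3 was also positive with quantile normalization (0.17), scaling to equal library totals (0.073), both libraries numbered 1 left out (0.096) and centering on genes above 0 (0.15), and Fcrls with array weights (0.075). Leaving out single libraries gave ranges of -1.12 to 0.27 for P2ry12, -1.12 to 0.40 for Tmem119, -0.98 to 0.17 for Siglech, -1.21 to 0.32 for Gpr34, -0.45 to 0.46 for Olfml3, -1.20 to 0.026 for P2ry13, -1.13 to 0.55 for Fcrls and -1.03 to 0.46 for Selplg.

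Relative to the 33 other microglia genes above 0 in every library, the differences turned negative for P2ry12 (-0.11), Tmem119 (-0.026), Siglech (-0.20), Gpr34 (-0.40), P2ry13 (-0.24), Fcrls (-0.094) and Selplg (-0.18). That of Gpr34 was also negative with log2(value + 10) (-0.13) and quantile normalization (-0.12). Leaving out single libraries gave relative differences of -0.22 to 0.79 for P2ry12, -0.34 to 0.40 for Gpr34, -0.0033 to 0.40 for P2ry13 and -0.29 to 0.83 for Selplg. The levels per kilobase moved by less than the spread between libraries in all alternatives run.

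Same-numbered libraries of the 2 groups correlated at 0.26, 0.035 and 0.14 in their deviations. These were the best matches for every library except control 2, which correlated best with E3–E12 diet library 3 (0.087). The sample titles number the replicates without naming a pairing, and the main comparison did not pair them. With the replicate block, 0 genes passed the adjusted threshold, and 468 had an unadjusted p under 0.05, 0 of them among the 8. In this balanced design the block leaves every log2 difference as it was, the median of the 8 included (-0.34). The median SE was 0.61 for the 8 genes and 0.71 for all genes with the block, against 0.96 and 0.85 without it. Without read counts, counting error could not be separated from the spread between litters.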

Other observations

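Beyond the homeostatic signature, 20 genes of activated and postnatal axon-tract microglia, a list chosen with earlier results known, had 9 members higher and 11 lower under the E3–E12 diet, with a median log2 difference of -0.072 and 0 past the adjusted threshold by limma. Ctsd and B2m, a lysosomal protease and the MHC class I light chain, were the most abundant of them. The 1 gene of the 20 with an unadjusted p under 0.05, beside 1.82% of all genes tested, was Cst7. This gene encodes the cysteine protease inhibitor cystatin F and is named after its values were seen. Its normalized counts were 0.775, 0 and 26.1 in controls and 79.8, 24.7 and 103 in E3–E12 diet mice, so that the groups overlapped between control 3 and E3–E12 diet library 2 (limma adjusted p = 0.999). Unlike the 8 homeostatic genes, Cst7 was not low in E3–E12 diet library 1. Of the activated list, 9 of 20 genes had their 2 lowest values in the libraries numbered 1.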
